A study of Mus musculus with 4 samples.

Results

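Heterogeneous nuclear ribonucleoproteins (hnRNPs) are the abundant RNA-binding proteins that coat nascent pre-mRNA. The 10 hnRNP genes *Hnrnpa1*, *Hnrnpa2b1*, *Hnrnpc*, *Hnrnpd*, *Hnrnph1*, *Hnrnpk*, *Hnrnpl*, *Hnrnpm*, *Hnrnpr* and *Hnrnpu* were followed at isoform level in NIH/3T3 cells, an immortalised line of mouse embryonic fibroblasts. Every transcript whose gene symbol was that of a member was taken, which gave 40 isoforms of the 34200 listed transcripts and 10 of the 21945 listed genes. The polyadenylated RNA of 4 libraries was sequenced, 2 from cells depleted of *Setd2* by siRNA (KD) and 2 from cells that received a Scrambled, non-targeting siRNA (WT). All cells were transfected by lipofection at a final siRNA concentration of 10 nM and lysed after 48 h, so that WT cells were also transfected. KD cells received a mixture of *Setd2*-specific siRNAs, and this transient depletion of the histone methyltransferase that deposits H3K36me3 is what the groups differ in. The values used are the authors' mean and variance of each isoform over the 4 libraries, KD and WT together. No value of a single library entered. The depth per library is therefore unknown, it cannot be seen whether KD and WT libraries overlap, and KD was not tested against WT.

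Most hnRNPs bind pre-mRNA through RNA recognition motifs or KH domains, and hnRNPs can promote or block the use of nearby splice sites. Many of them also splice their own pre-mRNA in several ways, so that a single gene supplies proteins that differ by a short peptide. A1 and A2/B1 are close relatives with glycine-rich tails, and C1 and C2 form the tetramers that package nascent transcripts. D, known as AUF1, binds AU-rich elements of unstable mRNAs. H1 binds G-runs, K binds C-rich RNA, and L binds CA repeats. M binds GU-rich RNA, R is a close relative of SYNCRIP, and U, also called SAF-A, links RNA to chromatin.

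The listed isoforms of a gene were compared base by base over the genome, and 10 in-frame coding segments of at most 200 bases that some isoforms carry and others skip are described here. All 10 lengths, from 3 to 156 bases, are divisible by 3. The 8 segments below carry most of the isoform differences described here. They are written 5′ to 3′ in the sense of the mRNA, with the segment in capitals and 12 flanking mRNA bases on either side in lower case. All positions refer to the GRCm38 build and lie in coding exons of the named gene.
Hnrnpa2b1 120-base exon: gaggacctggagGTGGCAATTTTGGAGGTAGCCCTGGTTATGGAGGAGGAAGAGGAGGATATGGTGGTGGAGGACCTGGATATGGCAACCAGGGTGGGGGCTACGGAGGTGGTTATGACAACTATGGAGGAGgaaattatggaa
Hnrnpa2b1 36-base exon: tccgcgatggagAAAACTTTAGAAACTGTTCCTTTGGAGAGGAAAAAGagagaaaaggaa
Hnrnpc 39-base segment: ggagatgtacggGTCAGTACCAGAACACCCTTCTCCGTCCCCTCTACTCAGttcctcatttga
Hnrnpc 21-base segment: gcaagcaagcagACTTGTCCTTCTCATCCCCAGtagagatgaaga
Hnrnpd 57-base exon: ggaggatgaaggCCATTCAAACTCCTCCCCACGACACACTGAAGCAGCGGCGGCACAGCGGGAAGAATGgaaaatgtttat
Hnrnpd 147-base exon: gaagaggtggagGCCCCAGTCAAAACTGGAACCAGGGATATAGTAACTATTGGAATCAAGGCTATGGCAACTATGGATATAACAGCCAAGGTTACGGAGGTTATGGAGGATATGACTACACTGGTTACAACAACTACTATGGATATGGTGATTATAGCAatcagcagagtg
Hnrnpk 72-base exon: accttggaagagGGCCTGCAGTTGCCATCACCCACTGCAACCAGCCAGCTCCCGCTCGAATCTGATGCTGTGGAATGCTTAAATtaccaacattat
Hnrnpm 117-base segment: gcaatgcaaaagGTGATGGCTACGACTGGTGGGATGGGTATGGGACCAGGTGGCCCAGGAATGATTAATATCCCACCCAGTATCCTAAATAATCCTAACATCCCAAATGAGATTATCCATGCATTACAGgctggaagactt

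The *Hnrnpa2b1* exons lie at chr6:51464428-51464547 and chr6:51467391-51467426 on the minus strand, and the shorter of them separates B1 from A2. The *Hnrnpc* segments lie at chr14:52081789-52081827, which distinguishes C2 from C1, and at chr14:52075416-52075436, both on the minus strand and both only part of an annotated exon. The *Hnrnpd* exons at chr5:99976534-99976590 and chr5:99963731-99963877, minus strand, define by their 4 combinations the AUF1 proteins p37, p40, p42 and p45. The *Hnrnpk* exon at chr13:58396188-58396259 and the *Hnrnpm* segment at chr17:33666530-33666646 are also on the minus strand.

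hnRNP mRNAs were among the most abundant in these cells. A level is given here as a normalised estimated count, that is, the authors' mean over the 4 libraries taken out of the natural log. The median level of the 40 isoforms was 4251, against 155 over all listed transcripts. The isoforms ranged from 55.9 for a minor *Hnrnpc* isoform to 103677 for the main *Hnrnpa1* isoform. A level of at least 1000 was reached by 30 of the 40 isoforms and by 26.3% of all transcripts. Together the 40 isoforms made up 0.608% of the summed level.

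Levels were compared between genes per kilobase of transcript, summed over the isoforms of a gene. *Hnrnpa1* was highest with 69997 normalised counts per kilobase, followed by *Hnrnpa2b1* with 53289. *Hnrnph1* with 17971 and *Hnrnpk* with 14940 came next, then *Hnrnpc* with 9281 and *Hnrnpm* with 8329. *Hnrnpl* stood at 6602 and *Hnrnpd* at 6424. *Hnrnpu* stood at 4702 and *Hnrnpr*, the lowest, at 2695 per kilobase, which was 26.0-fold below *Hnrnpa1*. Even *Hnrnpr* was above 92.1% of all genes with a length, whose median was 121 per kilobase.

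Of the 9 pairs of neighbours in this order, 4 could not be separated by 1 SD of their main isoforms over the libraries. These were *Hnrnph1* and *Hnrnpk*, *Hnrnpc* and *Hnrnpm*, *Hnrnpm* and *Hnrnpl*, and *Hnrnpl* and *Hnrnpd*, with ratios per kilobase between 1.03 and 1.26. The step from *Hnrnpa2b1* down to *Hnrnph1* was the largest, at 2.97-fold. Without regard to length, *Hnrnpu* would have ranked above *Hnrnpc* and *Hnrnpm*, since its level of 35922 came from a single transcript of 7640 bases.

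**Figure D1:**
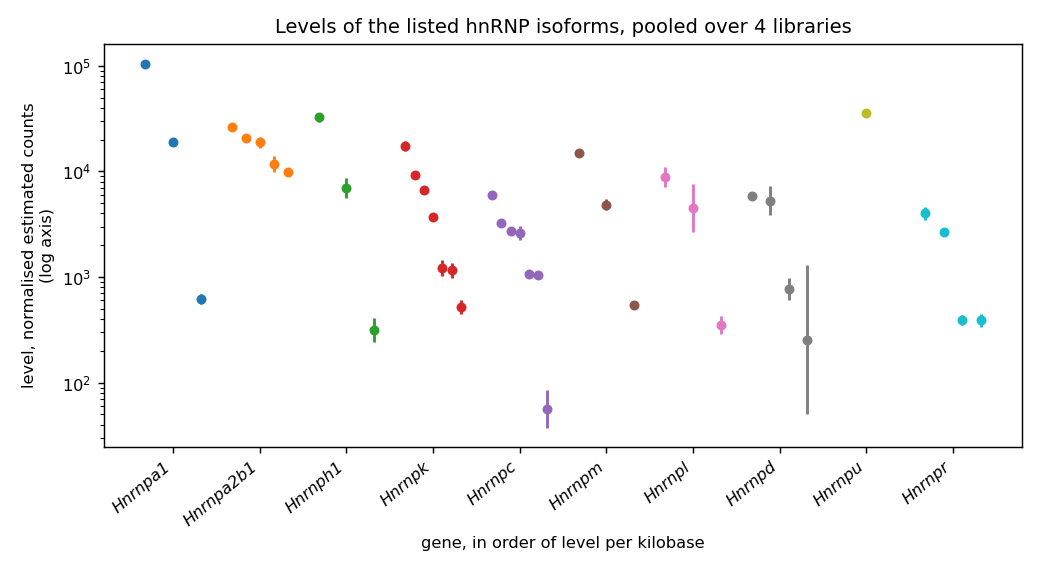
Level of each of the 40 hnRNP isoforms in normalised estimated counts (log axis), by gene in the order of level per kilobase. Points are the authors' mean over the 4 libraries taken out of the natural log, and lines span 1 SD over the libraries on that log scale. Most lines are shorter than the points, whereas the lowest *Hnrnpd* isoform spans a factor of 5.03 on either side.

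All 40 listed isoforms are annotated as protein-coding. The GENCODE annotation holds 142 transcripts of these genes, among them 16 annotated as targets of nonsense-mediated decay (NMD) and 37 with a retained intron. No isoform of either kind is among the 40. All 40 belong to the GENCODE basic set, which holds 43 transcripts of these genes, and the 3 not listed are protein-coding too. Nothing about the cells is therefore read from the absence of the other kinds. hnRNP genes are known for poison exons that send their own mRNA to NMD, and NMD and retained-intron isoforms were not analysed here. The shares given here are shares among the listed isoforms only. Whether reads of other isoforms were counted towards them was not tested, since the transcriptome used as the index is not given in the sources used here.

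Within a gene, the share of the main isoform differed widely. It ranged from 30.1% in *Hnrnpa2b1* to 84.1% in *Hnrnpa1* over the 9 genes with several isoforms, with a median of 53.9%. *Hnrnpu* has 1 listed isoform, *Hnrnpc* and *Hnrnpk* have 7 each. Of the 30 pairs of neighbouring isoforms within a gene, 9 could not be separated by 1 SD, and these fell in 6 genes. The main isoform of each gene was ahead of its runner-up by more than this spread, except in *Hnrnpd* and *Hnrnpl*.

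**Figure D2:**
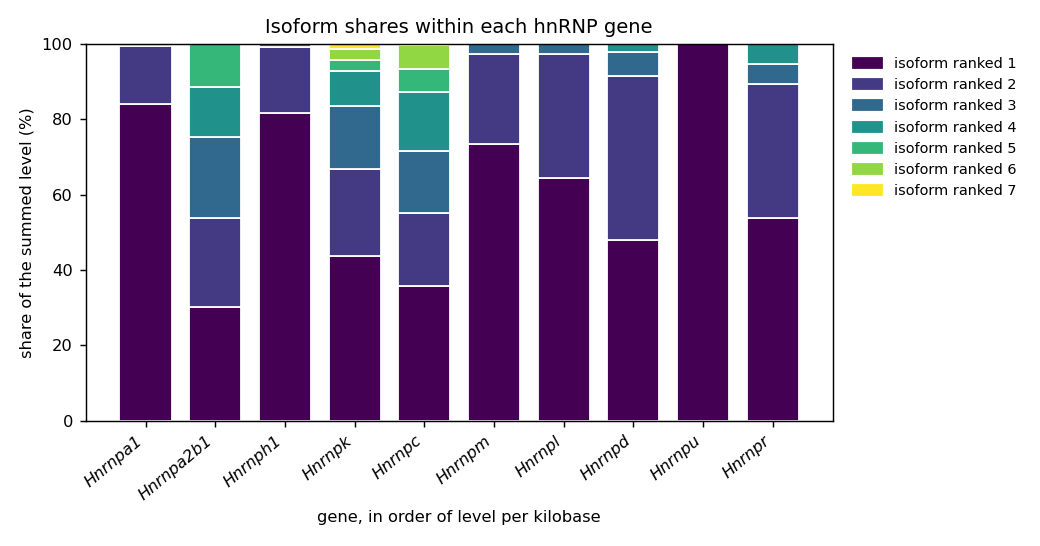
Share of each listed isoform in the summed level of its gene (%), stacked by rank, with genes in the order of level per kilobase. One isoform makes up 84.1% of *Hnrnpa1* and 81.7% of *Hnrnph1*, whereas the highest of 5 isoforms holds 30.1% of *Hnrnpa2b1*.

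For the A/B group, isoforms were summed by the protein they encode. In *Hnrnpa1*, the isoform of 320 codons had a level of 103677 and made up 84.1%. The longer form of 373 codons had a level of 18997 and made up 15.4%. The isoform of 268 codons lacks a 156-base exon of the glycine-rich tail at chr15:103243625-103243780, and held 0.51% with a level of 624. Most of the listed *Hnrnpa1* level thus came from the A1 form of 320 codons.

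*Hnrnpa2b1* mRNA was more evenly divided. A2, with 341 codons, came from 2 isoforms with levels of 26409 and 20727, which differ outside the coding part, and made up 53.8%. B1, with 353 codons and the 36-base exon, had a level of 18827 and made up 21.5%. The form of 301 codons, which skips the 120-base exon, came from isoforms with levels of 11806 and 9920 and made up 24.8%. The 120-base exon was thus included in 75.2% of the level.

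In *Hnrnpc*, the C1 form of 293 codons made up 41.8% of the level, from isoforms with levels of 5959 and 1037. The forms of 292 and 300 codons also lack the 39-base segment of C2 and are not counted in this share. The 39-base segment of C2 was included in 23.0%, but in 15.1% per kilobase, because the isoforms that carry it are long. The C2 form of 306 codons, without the 21-base segment, held 6.34% with a level of 1060, and a form of 313 codons with both the 39-base and the 21-base segments held 16.7%. The 21-base segment alone gives 300 codons and a share of 15.6%. Per kilobase the order of these forms was reversed, with 10.6% for 313 codons and 21.6% for 300 codons. A form of 292 codons lacks 3 coding bases at chr14:52075413-52075415, directly next to the 21-base segment, and held 19.5% with a level of 3263. These bases read TAG but are not a stop codon in the reading frame. The presence or absence of these segments of 39, 21 and 3 bases split *Hnrnpc* into 5 coding forms.

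*Hnrnpd* isoforms differ by the inclusion of 2 exons. The p42 isoform of 336 codons, with the 147-base exon, had a level of 5847 and held 48.1%. The p40 isoform of 306 codons, with the 57-base exon, had a level of 5284 and held 43.4%. The p45 isoform of 355 codons with both exons had a level of 778 and held 6.40%, but 1.78% per kilobase because its transcript is 6811 bases long. The p37 isoform of 287 codons with neither exon had a level of 256 and held 2.10%. Most of the level thus came from isoforms with 1 of the exons and not the other. Over the gene, the 147-base exon was included in 54.5% and the 57-base exon in 49.8% of the level. Per kilobase, these shares were 56.3% and 42.9%.

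In the remaining genes the leading coding form held between 59.1% and all of the level. *Hnrnph1* encoded 449 codons in 82.5% of its level and 472 codons in 17.5%. *Hnrnpk* encoded 464 codons in 69.7%, from isoforms with levels of 17365, 9214 and 1156. A *Hnrnpk* form of 463 codons with a level of 6637 held 16.7%, and the form of 439 codons without the 72-base exon held 9.31%. The 72-base exon was included in 90.6% of the level of the 6 isoforms that span it. *Hnrnpk* forms of 394 and 97 codons held 3.05% and 1.30%, or 3.14% and 3.29% per kilobase, which reverses their order.

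*Hnrnpl* encoded the form of 586 codons in 67.0% of its level and a form of 456 codons in 33.0%, with levels of 8776 and 354 for the isoforms of the former and 4504 for the latter. *Hnrnpm* encoded 690 codons in 73.4% (level of 14894) and 679 codons in 23.9% (4859), with 729 codons in 2.69% (545). The 117-base segment of *Hnrnpm* was included in 26.6%. *Hnrnpr* encoded 632 codons in 59.1% and 531 codons in 40.9%, or 56.0% and 44.0% per kilobase, and *Hnrnpu* had the single form of 800 codons. In all, the 40 isoforms gave 30 coding forms. The protein sequences were not analysed here.

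How far the KD and WT libraries could differ in the listed isoforms follows from the authors' variance. With 2 libraries in each group, the variance over the 4 libraries sets a ceiling on the difference between the group means of the logged values, which is reached only if the libraries of each group are equal. This ceiling is arithmetic and is not a test. It was under 1.5-fold for 34 of the 40 isoforms (85.0%), against 54.2% of all listed transcripts. Variances fall with level, so the share was also taken among transcripts with a level of at least 1000, where it was 28 of 30 isoforms (93.3%) against 84.5%. The median ceiling of the hnRNP isoforms was 1.20-fold, against 1.45-fold over all transcripts. At a level of at least 1000 the medians were 1.16-fold and 1.24-fold.

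For whole genes, the ceiling was lowest for *Hnrnpu* at 1.08-fold and *Hnrnpa1* at 1.08-fold, then *Hnrnpm* at 1.11-fold. It was 1.17-fold for *Hnrnpc*, 1.18-fold for both *Hnrnpa2b1* and *Hnrnpk*, 1.23-fold for *Hnrnpr* and 1.25-fold for *Hnrnph1*. *Hnrnpd* at 1.49-fold and *Hnrnpl* at 1.73-fold had the most room. Outside *Hnrnpd* and *Hnrnpl*, the summed level of the listed isoforms can thus have differed between the KD and WT libraries by at most 1.25-fold. Levels here are means on the log scale. The bound covers these 4 libraries only, and neither unlisted isoforms nor cells beyond these libraries.

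The same limits were carried to the coding segments and forms, as shares of estimated counts and not per kilobase. A pooled share per kilobase can lie outside them, as for the C2 segment of *Hnrnpc* at 15.1%. The share of the *Hnrnpa1* form of 373 codons lay between 14.1% and 16.8% in either group. For *Hnrnpa2b1*, the 120-base exon lay between 71.6% and 78.6%, and the 36-base exon of B1 between 18.5% and 24.7%. The C2 segment of *Hnrnpc* lay between 20.4% and 25.9% and its 21-base segment between 28.7% and 36.2%. The *Hnrnpk* exon was held between 89.1% and 91.9%, and the *Hnrnpm* segment between 24.1% and 29.3%. The limits of *Hnrnpd* were wider, from 43.3% to 63.8% for the 147-base exon and from 39.0% to 58.8% for the 57-base exon. For *Hnrnpl*, the share of the form of 456 codons could lie anywhere from 20.7% to 48.3% in either group. These limits rest on how reads were assigned to isoforms and include no error of that assignment beyond what the variance over libraries holds.

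**Figure D3:**
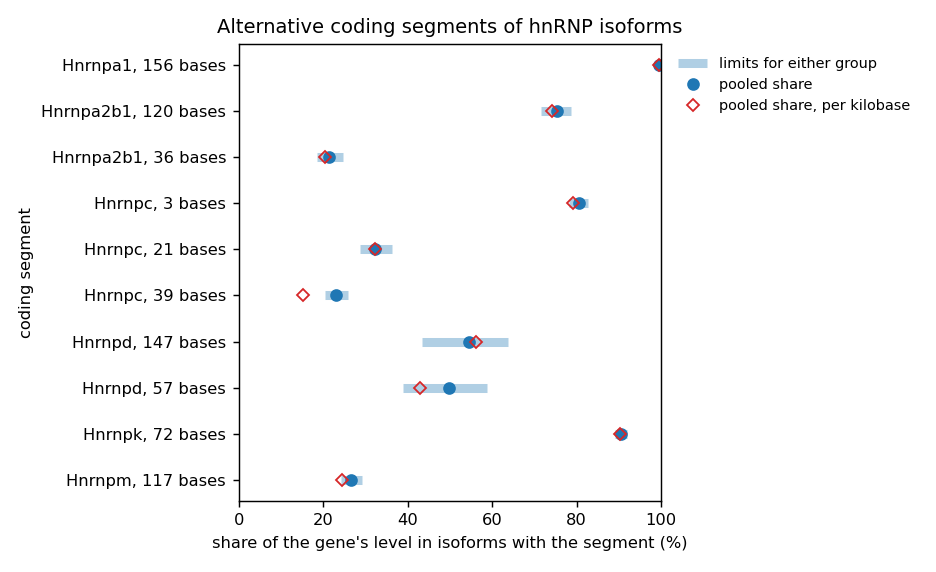
Share of each gene's level in isoforms that carry a coding segment (%), for 10 segments. Filled points are the pooled shares of counts and open diamonds the shares per kilobase of transcript. Bars are the limits that the variance over the 4 libraries allows for the share of counts in either group. The bars of the *Hnrnpd* exons are the widest, and the 39-base segment of *Hnrnpc* falls from 23.0% to 15.1% per kilobase.

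The spread of each isoform over the libraries was set beside that of transcripts of similar level, in 20 classes of level. The spread factor is the exponential of the SD on the natural log scale. Its median was 1.11 for hnRNP isoforms and 1.24 for all transcripts. Of the 40 isoforms, 6 were below the 10th percentile of their class and 3 were above the 90th. By construction, 10% of all transcripts lie beyond each of these limits, so the counts are given as a description only. The main isoforms of *Hnrnpa1*, *Hnrnpm* and *Hnrnpu* were among those below the 10th percentile, with spread factors of 1.04 each.

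The 3 isoforms of large spread belonged to *Hnrnpd* and *Hnrnpl*. The p37 isoform of *Hnrnpd* had a spread factor of 5.03 (99.8th percentile of its class), and its highest library was at least 16.4-fold and at most 52.2-fold above its lowest. The p40 isoform of *Hnrnpd* had a spread factor of 1.37 (94.8th percentile), with a ceiling of 1.73-fold between the groups. The *Hnrnpl* isoform of 456 codons had a spread factor of 1.68 (99.4th percentile), a ceiling of 2.46-fold, and libraries that differed by at most 3.58-fold. By contrast, the p42 isoform of *Hnrnpd* had a spread factor of 1.08 and a ceiling of 1.14-fold. Within *Hnrnpd*, the isoforms with the 57-base exon or with neither exon therefore varied among the libraries more than p42 did. Which libraries were high or low cannot be told from the pooled values.

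The other 3 isoforms with a ceiling of 1.5-fold or more were p45 of *Hnrnpd* at 1.51-fold, a minor *Hnrnph1* isoform at 1.58-fold (level of 316) and the lowest *Hnrnpc* isoform at 2.04-fold (level of 55.9). These were within the 10th to 90th percentile of spread for their level.

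**Figure D4:**
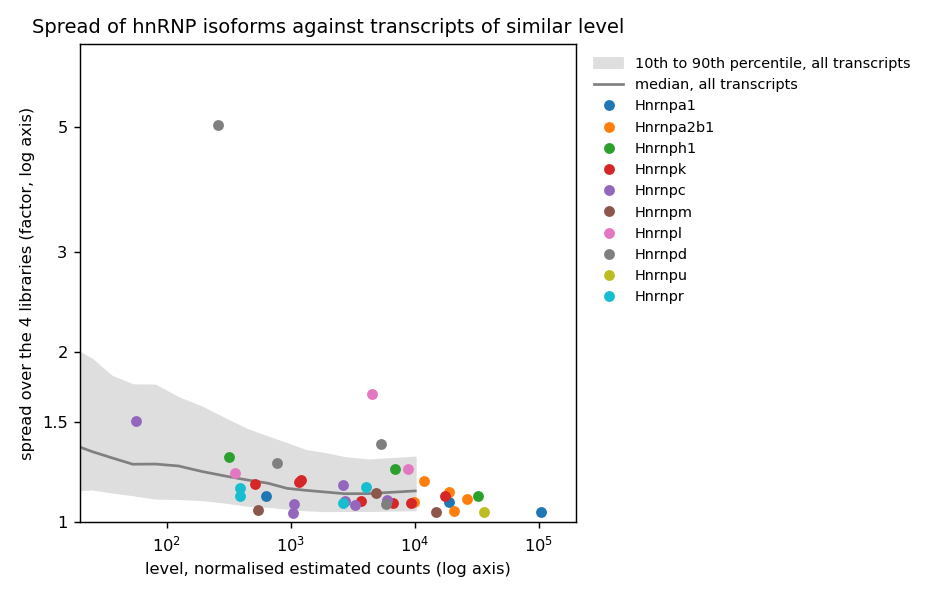
Spread over the 4 libraries (exponential of the SD on the natural log scale, log axis) against level in normalised estimated counts (log axis). Points are the hnRNP isoforms by gene, the line is the median of all listed transcripts in classes of level, and the shaded area spans their 10th to 90th percentile. An *Hnrnpd* point at 5.03, an *Hnrnpl* point at 1.68 and an *Hnrnpd* point at 1.37 lie above the shaded area.

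Isoforms of 1 gene share most of their sequence, so the estimated counts depend on how shared reads were divided among them. The authors' variance from resampling of the reads measures this uncertainty. Multiplied by the level, it gives a factor of about 1 where only counting noise is present, and more where reads are shared. The median of this assignment factor was 5.16 for the hnRNP isoforms and 1.64 for all transcripts with a level of at least 100. It was above 10 for 9 of the 40 isoforms, against 12.1% of all transcripts at that level. Among transcripts of similar level, 17 of the 40 hnRNP isoforms were above the 90th percentile of the resampling variance, where 10% of all transcripts lie by construction.

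The sequences show where isoforms are alike. Cut into 31-base words, an hnRNP isoform had a median of 1.51% of words that occur in no other listed hnRNP isoform and no other gene, and 11 isoforms had no such word at all. *Hnrnpu*, with a single isoform and 100% words of its own, had an assignment factor of 1.02. The *Hnrnpr* transcript of 21452 bases had 82.2% words of its own and a factor of 0.91. At the other end, the p37 isoform of *Hnrnpd* had no word of its own and a factor of 81.9, and the C2 isoform of *Hnrnpc* with 306 codons had none and a factor of 70.1. The other 9 isoforms without a word of their own had factors from 2.22 (p42 of *Hnrnpd*) to 13.4 (*Hnrnpk* with 463 codons). Over the 40 isoforms, the assignment factor and the share of own words had a Spearman rho of -0.53. With the factor logged and the share not, the Pearson r was -0.58. Isoforms of 1 gene share reads and are not independent.

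**Figure D5:**
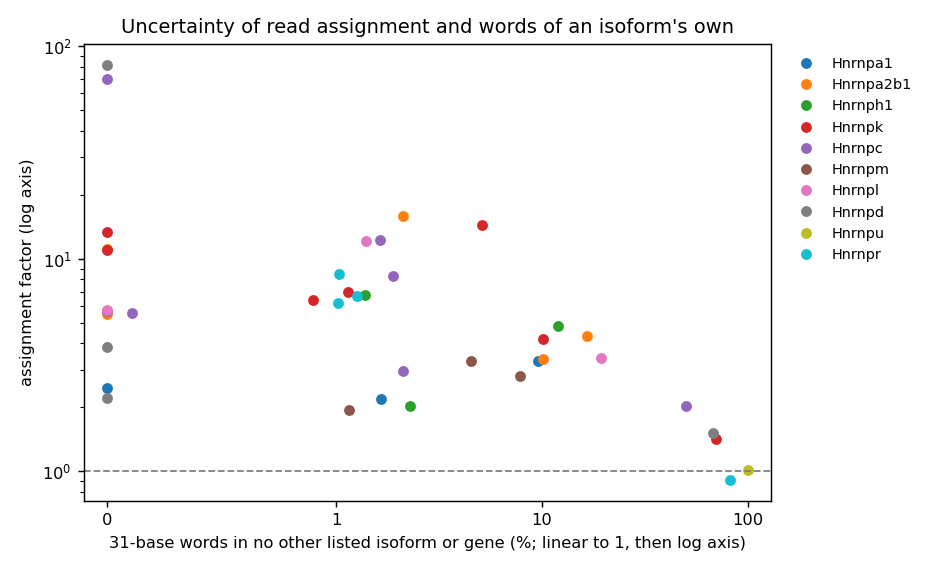
Assignment factor (the authors' resampling variance times the level, log axis) against the share of 31-base words that an isoform shares with no other listed hnRNP isoform or other gene (%, linear up to 1 and log above). Each point is 1 of the 40 isoforms, and the dashed line marks a factor of 1, the value of counting noise alone. The p37 isoform of *Hnrnpd* and the C2 isoform of *Hnrnpc* lie at 81.9 and 70.1 with no word of their own, whereas *Hnrnpu* lies at 1.02.

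For 4 isoforms the resampling variance was larger than the variance over the libraries, which was the case for 27.7% of all transcripts. For the 306-codon *Hnrnpc* isoform it was 12.6-fold larger, so that its level and share of 6.34% are uncertain. Of the isoforms described above for their large spread over the libraries, the *Hnrnpl* isoform of 456 codons had an assignment factor of 12.1 and p40 of *Hnrnpd* one of 3.82, and their resampling variance was 0.0099 and 0.0072 of the variance over the libraries. For p37 this fraction was 0.123. These isoforms were picked for a large variance over the libraries, so nothing is read from the small fractions.

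Processed pseudogenes share sequence with several of these genes, and reads of these sources cannot be told apart there. *Hnrnpa1* shared 47.9% of its words with the pseudogene *Gm10052*, and *Hnrnpk* 25.6% with *Gm7964*. *Hnrnpc* shared 12.1% with *Gm12696*. *Hnrnpm* shared 27.7% of its words with the coding gene *March2*, but its main isoform of 690 codons shared 0% with other genes. The main isoforms of *Hnrnpr*, with levels of 3997 and 2641, shared 34.3% and 36.2% of their words with other genes, among them the processed pseudogene *Gm6159*. For p42 and p40 of *Hnrnpd* this share was 22.4% and 19.1%. The gene that shared most words with *Hnrnpd* was *Gm17092*, which is annotated as antisense and not as a pseudogene, and words were compared on both strands. The levels of *Hnrnpa1*, *Hnrnpk*, *Hnrnpc* and *Hnrnpr* are uncertain to the extent that reads were divided with these other genes. For *Hnrnpd* this also depends on whether reads were assigned by strand, which is not given in the sources used here.

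Of 18 further genes of the hnRNP family and its relatives, 17 were listed. Their levels per kilobase ran from 432 for *Rbmx*, which encodes hnRNP G, to 20595 for *Hnrnpf*, a relative of *Hnrnph1*, so that *Hnrnpa1* and *Hnrnpa2b1* exceeded each of those with a length. The median ceiling on a difference between KD and WT was 1.20-fold, and the highest was that of *Hnrnph2*, another relative of *Hnrnph1*, at 1.53-fold. These gene ceilings were not set against those of all genes, so nothing particular to the family is read from them. This list was chosen by family membership and gives a description only.

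Markers of fibroblasts were present throughout. All 10 fibroblast markers examined were listed, from 570 per kilobase for *Pdgfrb* to 458932 for *S100a4*. The epithelial markers *Epcam* and *Krt5* and the muscle markers *Myod1* and *Myog* were not listed. The immune marker *Cd68* with 287 per kilobase and the epithelial marker *Krt14* with 138 were listed and lay above the median gene at 121. *Des* with 48.3 and *Cdh1* with 25.4 lay below it. The endothelial markers ran from 1.20 to 9.24 per kilobase, and the immune markers *Ptprc* and *Adgre1* had 6.40 and 0.416. Summed levels were 346 for the epithelial, 67.4 for the endothelial, 375 for the immune and 146 for the skeletal muscle markers, against 1267870 for the fibroblast markers. *Setd2*, the siRNA target, had a level of 1844 and a spread factor of 2.22 (99.8th percentile of its class), with a highest library at least 3.99-fold and at most 7.07-fold above the lowest. Its value by library, which would check the labels, is not given by the pooled columns.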

How the data were processed

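Polyadenylated RNA of 2 KD and 2 WT libraries of NIH/3T3 cells was analysed, grouped by the knockdown label. Adapter removal by the authors used BBDuk, transcript quantification used Kallisto, and the tables come from Sleuth. The submitters' processing notes also name bcl2fastq 2.17 and HISAT2. The index transcriptome and the filter on low counts are not given in the sources used here. The authors deposited, for each transcript, the mean over all 4 libraries of the natural log of the estimated count, divided by a size factor of each library, plus 0.5. They also deposited the variance over the libraries and the variance from resampling of the reads on that scale. The other deposited columns hold the authors' comparison of KD with WT, namely p-values, q-values, effects with standard errors, the likelihood ratio statistic and residual variances, and per gene combined p-values and a sum of logged means. They hold the findings of the study and were not used. The planned count test needs values of single libraries and was not run.

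Levels are the exponential of the mean, minus 0.5. Shares are levels divided by the sum over the listed isoforms of a gene. The ceiling on a difference between groups is the exponential of the square root of 3 times the variance, a bound for 2 against 2 libraries, and gene and segment limits let every isoform reach its ceiling. Neighbouring levels were called not separable where their ranges of 1 SD overlapped, a criterion added after the values were seen. Lengths, positions and sequences came from GENCODE M21 on GRCm38, matched by transcript identifier for 98.6% of the 34200 transcripts, and 31-base words were compared on both strands over all M21 transcripts. Python 3.11.15, numpy 2.4.6 and pandas 2.3.3 were used, and the limits were tested on simulated data. The members, the marker lists and the list of relatives were chosen with earlier results of these data known. A gene of the list of relatives and a coding segment are not reported here. Named isoforms are, in each gene, the highest, those with at least 10% of the level and those with the largest variance over libraries or from resampling. Minor coding forms were named beside them after their values were seen. The design text names independent transfections but does not tie them to the libraries, so the spread over libraries may be partly technical.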

Additional observations from a re-analysis of the deposited data

How the results depend on the processing

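No paired analysis was possible because no values of single libraries were used, and leaving out each replicate was not run for the same reason. Taking the level as the exponential of the mean plus 0.5 times the variance moved the median isoform level from 4251 to 4466 and the level of the p37 isoform of *Hnrnpd* from 256 to 944, whose share then rose from 2.10% to 7.17%. The main isoform was the same in 9 of 9 genes under this change and per kilobase of transcript. The median share of the main isoform was 53.9% as reported and 55.3% per kilobase. With 200 bases taken from each length, 4 of the 10 gene levels per kilobase moved by more than the summed 1 SD spread of their isoforms, and the order of the 10 genes was the same. The number of isoforms above the 90th percentile of spread was 3 with 20 and with 50 classes of level and with transcripts of a level of at least 100 only. What limits these values is the pooling of KD with WT and the reads shared between isoforms. The depth is unknown.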
